A study of Bos taurus with 3 samples.

Results

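The genes described here are those of class I antigen presentation on the GeneChip Bovine Genome Array, an Affymetrix 3′ expression array that reads each gene through probe sets. They were taken by gene symbol: the class I heavy chains BOLA, BOLA-N, BOLA-NC1 and JSP.1, their light chain B2M, the peptide transporter TAP1 and TAP2, the loading protein TAPBP, and the immunoproteasome subunits PSMB8 and PSMB9. Of these 10 genes, 8 had a probe set annotated to that symbol alone, which gave 10 probe sets of the 24016 on the array and 8 genes of the 9155 named. BOLA-NC1 and JSP.1 had no such probe set. The members were chosen with differences between these cultures known, so their values are given as a description, with no test.

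RNA came from 3 bovine (Bos taurus) cultures, each measured on 1 array. Of these, 2 were isolates of Gonadal Ridge Epithelial-Like (GREL) cells, polygonal cells grown from collagenase-dispersed fetal ovaries and enriched clonally. The labels give 130 days of gestation for both isolates, while by fetal length the methods place isolate 1 a few days earlier. The other culture held fibroblastic cells of the medullar stroma, from the ovary of an adult animal over 1 year old. No genotype or treatment was given for any culture. All 3 were grown in DMEM/F12 medium with fetal calf serum and antibiotics, and age, cell type and culture differed together between the fibroblasts and the GREL cells, so that these cannot be told apart. The fibroblasts had no replicate, and the only spread that could be seen was the gap between the 2 isolates.

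In class I presentation, proteins of the cytosol are cut by the proteasome and the peptides are carried into the endoplasmic reticulum by TAP1 and TAP2. There TAPBP (tapasin) holds an empty heavy chain and B2M beside the transporter until a peptide binds, and the complex then moves to the cell surface. Interferons raise the transcription of most of these genes and exchange the standard catalytic subunits of the proteasome for immunosubunits. The heavy chain genes of cattle are among the most variable of the genome, and animals differ in which of them they carry. A probe set designed on the sequence of an allele may therefore read other alleles poorly.

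Values are log2 hybridization intensities after RMA and quantile normalization, rounded by the depositors to 0.1, so a difference of 1 is 2-fold. The medians over all probe sets were 2.9, 3.0 and 2.9 in the fibroblasts, isolate 1 and isolate 2. The deposited table has no detection calls, and a background level was set from 51 genes of other organs. Their 95th percentile was 8.25, 7.90 and 7.85 on the arrays in the same order and their 90th percentile was 5.50, 6.20 and 6.00. Some probe sets of these genes were bright on every array, up to 11.7, so a value under either level does not show that a gene was silent. KRT19, the simple-epithelium keratin that marks GREL cells, was at 7.1 in the fibroblasts against 11.3 and 11.6 in the isolates. The stromal receptor PDGFRA was at 8.3 in the fibroblasts against 6.1 and 5.5 in the isolates. MFAP5 was at 10.2 in the fibroblasts against 5.7 and 5.3 in the isolates, and TCF21 at 7.4 against 3.4 and 3.2. Of 14 stromal markers 12 lay above the 90th percentile of other-organ genes in the fibroblasts, 9 in isolate 1 and 7 in isolate 2. Some of them stayed bright in the isolates. The collagen COL3A1 was at 11.3 in the fibroblasts against 10.7 and 10.2, and VIM (vimentin) differed by 0.0 and -0.1 in isolates 1 and 2. The summed linear signal of the stromal markers was 17100 in the fibroblasts, 10700 in isolate 1 and 6930 in isolate 2. Of 7 measured markers of GREL cells and simple epithelium 5 were over 3-fold higher in both isolates, beside 2.38% of all genes. Of the 14 stromal markers 3 were over 3-fold lower in both, beside 2.38% of all genes. Limma called 0 of either list (4 higher and 4 lower at an unadjusted p under 0.05), and most of the first list was named by the study from these arrays.

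Among the measured members, the heavy chain entries BOLA and BOLA-N differed most from the fibroblasts and B2M differed less. Most of the shared heavy chain probe sets described below differed less than BOLA and BOLA-N. BOLA and BOLA-N were over 3-fold lower than in the fibroblasts in both isolates, 2 of the 8 measured members, beside 2.38% of all genes that met this rule. None of the members was over 3-fold higher, where the share of all genes was also 2.38%. By any amount, 5 members were lower in both isolates (33.5% of all genes), 1 was higher in both (41.6% of all genes), and the other 2 did not differ from the fibroblasts in the same direction in both. The median log2 difference of the members was -0.65, and over all genes it was 0.05. The members were picked on this comparison, and these counts show nothing beyond their own values.

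**Figure D1:**
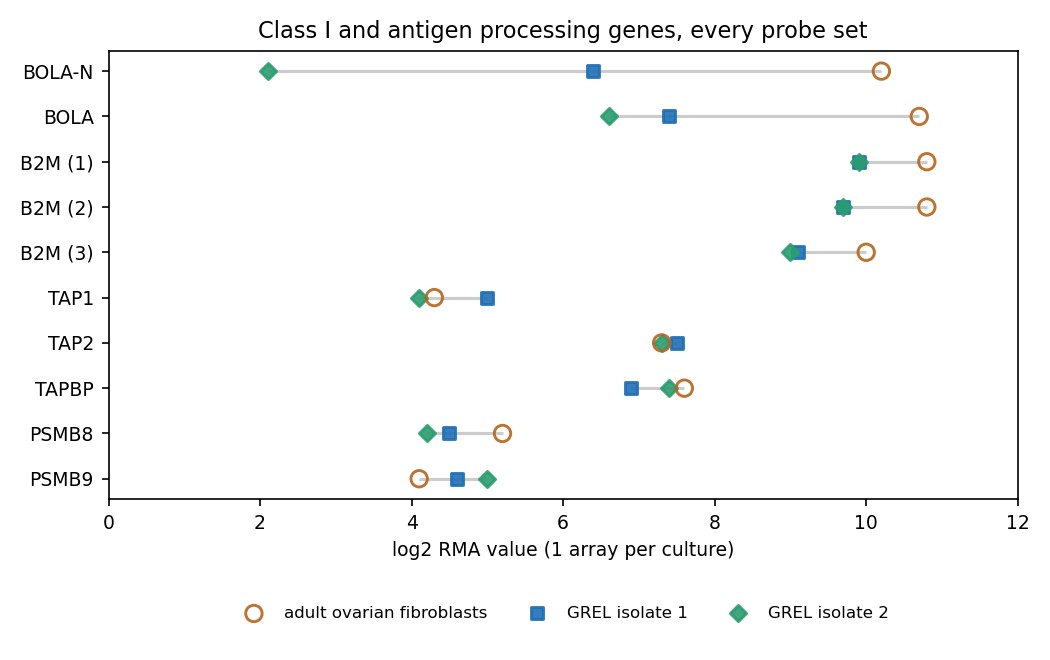
Log2 RMA values (horizontal axis) of every probe set of the 8 measured genes in adult ovarian fibroblasts (open circles) and in GREL isolates 1 (squares) and 2 (diamonds), 1 array per culture. BOLA-N runs from 10.2 in the fibroblasts to 2.1 in isolate 2, the 3 probe sets of B2M keep both isolates close together below the fibroblasts, and TAP2 lies between 7.3 and 7.5 in all cultures.

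BOLA, a class I heavy chain, was at 10.7 in the fibroblasts, 7.4 in isolate 1 and 6.6 in isolate 2. The signal of its only single-symbol probe set, Bt.5324.1.S1_s_at, was therefore 9.85-fold and 17.1-fold lower in the isolates. The brightest probe set annotated to several class I genes was 3.25-fold lower in both. The isolates lay 0.8 apart, far less than either lay from the fibroblasts. This gap was at the 95th percentile of gaps over all genes. All 3 values exceeded the 90th percentile of other-organ genes. Among the 9155 genes the mean difference of -3.70 was the 23rd lowest.

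BOLA-N, annotated as a further heavy chain, was at 10.2 in the fibroblasts, 6.4 in isolate 1 and 2.1 in isolate 2. The fibroblasts were bright, isolate 1 was intermediate and isolate 2 was below the median of its array. The log2 differences were -3.8 and -8.1, and the second has no certain size because isolate 2 lay in the range of probe sets without evident signal. The mean difference of -5.95, the 4th lowest of all genes as deposited, carries the same limit. The isolates themselves lay 4.3 apart on the log2 scale as deposited, the widest gap among the 9155 genes, of which 46 (0.502%) were over 3-fold apart between the isolates. With values below an array's median raised to that median, a setting chosen after seeing the data, the gap was 3.5 and ranked 3, behind BOLA-DQB1 (4.0) and AOX1, an aldehyde oxidase (3.9), and 30 genes were over 3-fold apart. Over all genes the median gap was 0.2 and the 95th percentile 0.8. On either scale BOLA-N was the only measured member over 3-fold apart between the isolates, and as deposited in 5 of the 8 the gap was 0.5 or less.

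**Figure D2:**
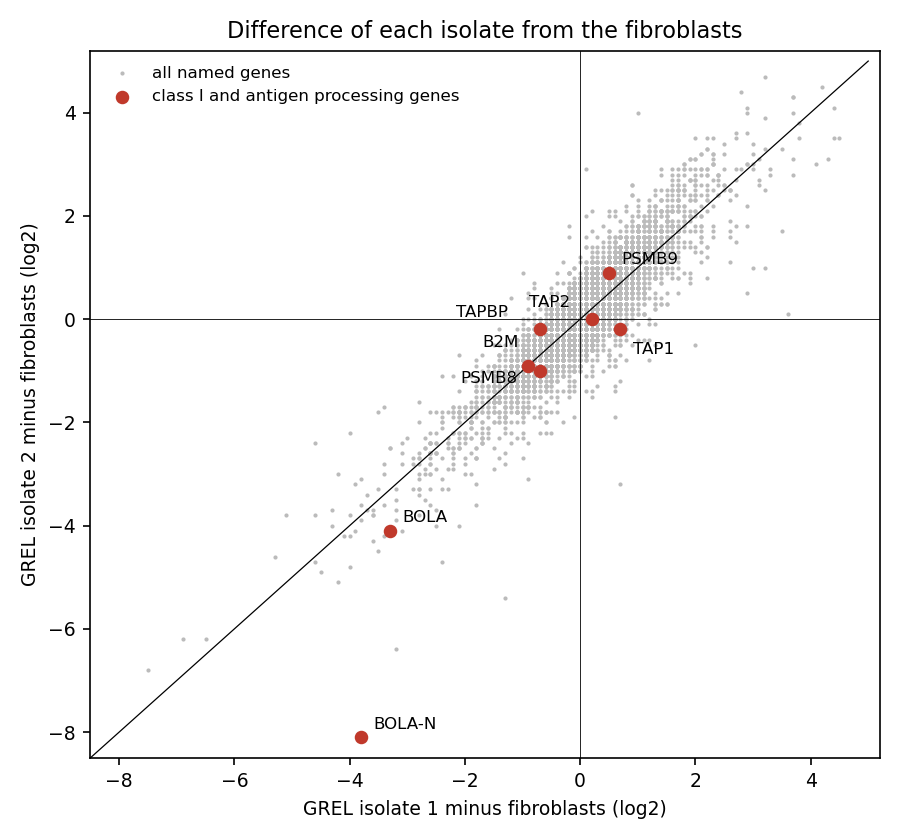
Log2 difference from the fibroblasts of GREL isolate 1 (horizontal axis) and GREL isolate 2 (vertical axis) for all 9155 named genes (grey) and the 8 measured class I and antigen processing genes (red), with the line of equal difference. BOLA lies near the line at -3.3 and -4.1, BOLA-N lies well below it at -3.8 and -8.1, and the other members lie within 1.0 of 0 on both axes.

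The genes whose 2 differences from the fibroblasts came nearest to those of BOLA-N, were found by Euclidean distance over the 2 isolates. The nearest was MGP, matrix Gla protein, an inhibitor of calcification. MGP was at 11.6 in the fibroblasts, 8.4 in isolate 1 and 5.2 in isolate 2, at a distance of 1.80. The next were LBH, a transcriptional cofactor (distance 3.03), MFAP5, a microfibril protein (3.28), LOC404105 (3.30) and EFEMP1, a fibulin (3.31). These distances rest in part on the uncertain value of -8.1, and all points share the 1 fibroblast array.

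The same measure was taken for BOLA after its values were seen. The nearest genes were TNC, the matrix protein tenascin-C, at a distance of 0.14, LOC512672 at 0.20, the secreted factor SERPINF1 at 0.22, the stress-response regulator NUPR1 at 0.36 and the peptide-processing enzyme CPE at 0.41. LOC512672 was at 6.7 in the fibroblasts against 3.6 and 2.6 in the isolates. In the current bovine gene table (assembly ARS-UCD2.0) it is the protein-coding gene next to BOLA-NC1.

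The annotation assigned a further 20 probe sets to several class I genes at once, in combinations of BOLA, BOLA-N, BOLA-NC1 and JSP.1 or, in 4 of them, of BOLA with a separate entry spelt BoLA. They cannot be credited to a single gene and are given by probe set. They are not independent of each other, since many hold overlapping sequence. Of the 20, 4 were over 3-fold lower in both isolates and 0 over 3-fold higher, where all probe sets gave 1.74% and 1.58%. By any amount 12 were lower in both and 4 higher in both, where all probe sets gave 37.9% and 33.5%. The median difference was -0.15, and it was -0.05 over all probe sets.

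The 3 shared probe sets above the 90th percentile of other-organ genes on any array were all lower in the isolates. Bt.7773.1.S1_x_at was at 10.2 in the fibroblasts against 8.5 in both isolates. Bt.8121.1.S1_x_at was at 8.3 in the fibroblasts, 6.1 in isolate 1 and 6.8 in isolate 2. Bt.27283.1.S1_x_at was at 7.8 in the fibroblasts, 6.0 in isolate 1 and 6.4 in isolate 2. Their mean differences ran from -1.85 to -1.60, smaller than those of BOLA and BOLA-N, and the isolates were at most 0.7 apart. In the brightest of them, the isolates stayed above the 95th percentile of other-organ genes.

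Of the 17 dimmer ones, 11 lay at or below the array median in every culture and differed from the fibroblasts by -0.30 to 0.35. The other 6 reached at most 5.0. Among these, Bt.29824.1.S1_s_at was at 3.9 in the fibroblasts against 0.7 in both isolates, Bt.4762.1.S1_at at 4.0 and at 2.1 and 2.4, and Bt.29814.1.S1_at at 3.4 and at 1.6 and 1.7. Bt.2592.1.A1_x_at went the other way in isolate 2, with 3.7 in the fibroblasts, 2.8 in isolate 1 and 5.0 in isolate 2. In 17 of the 20 the isolates were 0.3 or less apart, but 16 of these were among the dimmer ones. The largest gap was 2.2, in Bt.2592.1.A1_x_at.

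The entry BoLA, which was not taken as a member, also had a probe set of its own, Bt.27760.1.S1_at. It was at 6.0 in the fibroblasts, 2.6 in isolate 1 and 4.3 in isolate 2. Both isolates were over 3-fold lower and lay 1.7 apart, with isolate 1 the lower, the reverse of the order in BOLA-N. Both isolate values were under the 90th percentile of other-organ genes.

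**Figure D3:**
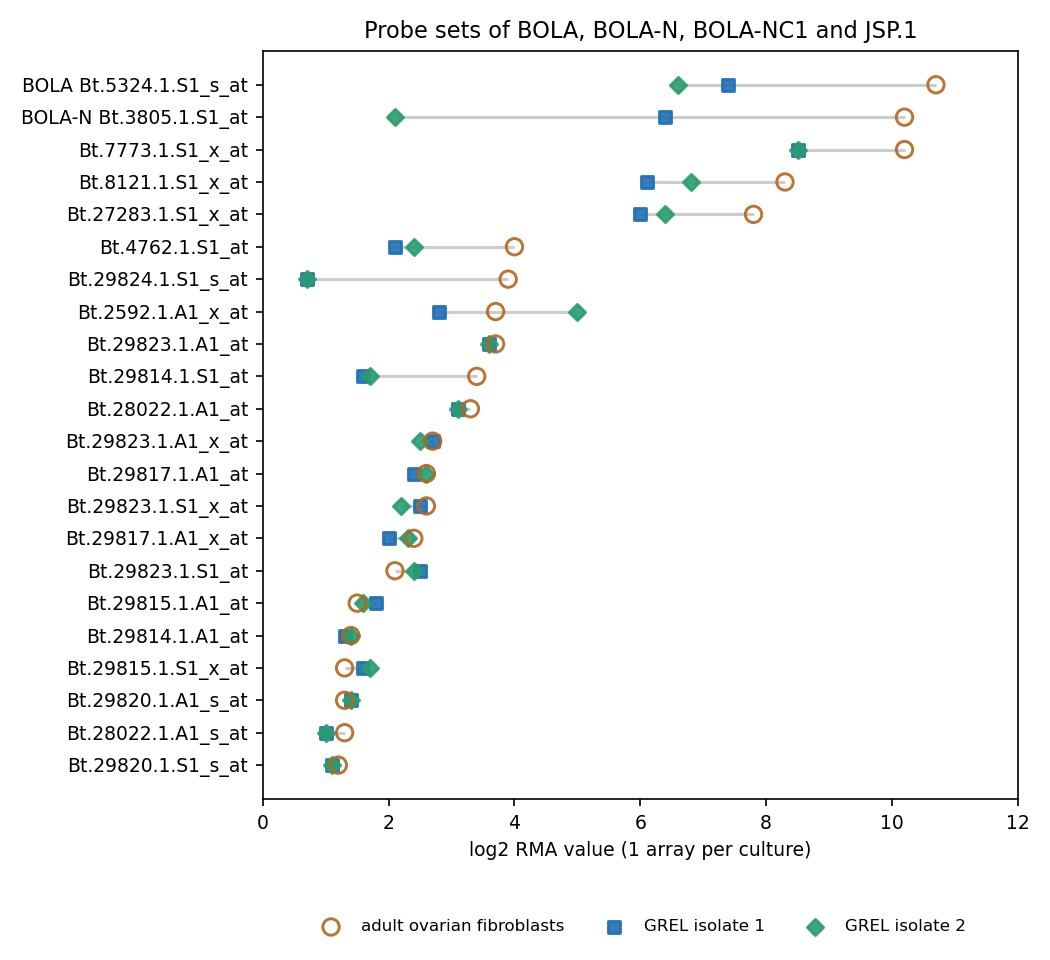
Log2 RMA values (horizontal axis) of the 22 probe sets annotated to BOLA, BOLA-N, BOLA-NC1 or JSP.1, alone or together, in adult ovarian fibroblasts (open circles) and in GREL isolates 1 (squares) and 2 (diamonds), in order of the fibroblast value. The 2 probe sets at the top are those of BOLA and BOLA-N, the other 20 are annotated to several class I genes. In each of the 5 brightest the fibroblasts lie above both isolates, and from Bt.29823.1.A1_x_at downward the 3 cultures lie close together.

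B2M, the light chain that every class I heavy chain binds, was read by 3 probe sets that gave nearly the same differences. The probe set of highest mean was at 10.8 in the fibroblasts against 9.9 in both isolates, or 1.87-fold lower in each. The second was at 10.8 in the fibroblasts against 9.7 in both isolates. The third was at 10.0, 9.1 and 9.0. The mean differences averaged -0.98 with an SD of 0.10 over the 3 probe sets, and single differences ran from -1.1 to -0.9. The isolates were at most 0.1 apart in any of the 3. B2M was the only measured member above the 95th percentile of other-organ genes on all 3 arrays. In both isolates its log2 difference from the fibroblasts was smaller than those of BOLA, BOLA-N and the 3 brightest shared class I probe sets.

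The peptide transporter showed no common direction. TAP1 was at 4.3 in the fibroblasts, 5.0 in isolate 1 and 4.1 in isolate 2, so the fibroblasts lay between the isolates. TAP2 was at 7.3 in the fibroblasts, 7.5 in isolate 1 and 7.3 in isolate 2. TAPBP was at 7.6 in the fibroblasts, 6.9 in isolate 1 and 7.4 in isolate 2, both lower, by 0.7 and 0.2. For all 3 genes the gap between the isolates, 0.9, 0.2 and 0.5, was as large as or larger than the mean difference from the fibroblasts of 0.25, 0.10 and -0.45. TAP1 lay under the 90th percentile of other-organ genes on every array, whereas TAP2 and TAPBP lay above it on every array.

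The immunosubunits differed in opposite directions and were dim. PSMB8, the immunosubunit that replaces PSMB5, was at 5.2 in the fibroblasts, 4.5 in isolate 1 and 4.2 in isolate 2. PSMB9, which replaces PSMB6, was at 4.1 in the fibroblasts, 4.6 in isolate 1 and 5.0 in isolate 2. Both isolates lay below the fibroblasts in PSMB8 and above them in PSMB9, and all these values were under the 90th percentile of other-organ genes. In the current gene table TAP1 lies directly between PSMB8 and PSMB9. These 3 neighbours thus gave a lower, a mixed and a higher value in the isolates.

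The standard subunits were higher in the isolates. PSMB5 was at 8.0 in the fibroblasts against 9.2 and 9.4 in isolates 1 and 2 (difference 1.30 ± 0.14 SE, limma adjusted p = 0.2). PSMB6 was at 8.1 in the fibroblasts against 8.7 and 8.8, and PSMB7 at 7.8 and at 8.4 and 8.7. PSMB10, the immunosubunit that replaces PSMB7, was at 5.8 in the fibroblasts against 4.4 and 4.7 in the isolates (difference -1.25 ± 0.21 SE, limma adjusted p = 0.23). None passed the test. Set against its standard partner, the log2 difference of PSMB8 was lower by 1.9 in isolate 1 and by 2.4 in isolate 2, and that of PSMB10 was lower by 2.0 in both. PSMB9 and PSMB6 had similar differences, with gaps between their log2 differences of -0.1 and 0.2.

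**Figure D4:**
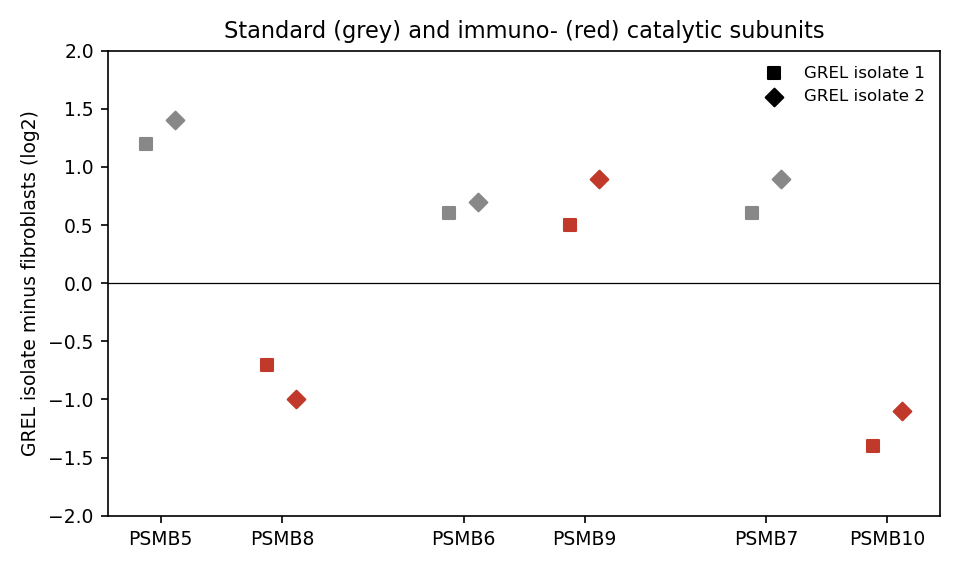
Log2 difference from the fibroblasts (vertical axis) of the standard catalytic proteasome subunits (grey) and of the immunosubunits that replace them (red) in GREL isolate 1 (squares) and GREL isolate 2 (diamonds). PSMB5, PSMB6, PSMB7 and PSMB9 lie above 0 in both isolates, and PSMB8 and PSMB10 lie below 0 in both.

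The rest of the pathway was compared over lists, with limma fitted across all 24016 probe sets. The fit called 0 probe sets higher (0%) and 0 lower (0%) in GREL cells at an adjusted p under 0.05. At an unadjusted p under 0.05 it gave 2354 higher and 2666 lower, and the methods' one-way analysis of variance, adjusted the same way, also called 0 of each (186 and 208 unadjusted). The analysis of variance covered 20503 probe sets, since those with identical isolates have no spread and give no value. The limma fit has 1 residual degree of freedom, and counts by the 3-fold rule are given beside it. Each list count stands beside the same shares of all genes. Over 3-fold in both isolates these were 2.38% higher and 2.38% lower, and by any amount 41.6% and 33.5%. The lists were chosen with earlier results of these data known.

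Of 8 measured proteasome catalytic subunits and activators other than the members, 0 were over 3-fold apart from the fibroblasts in both isolates, 7 were higher in both by any amount and 1, PSMB10, was lower. The median difference was 0.38. The PA28 activator subunits, which open the proteasome for class I peptides, were at 8.3 in the fibroblasts against 8.5 in both isolates for PSME1 and at 7.1, 7.2 and 7.9 for PSME2. Limma called 0 of the 8, and 3 were higher and 1 lower at an unadjusted p under 0.05.

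Of 11 measured partners that load and trim peptides, 0 were over 3-fold higher and 0 over 3-fold lower in both isolates, and the median difference was 0.10. The chaperones of the loading complex were bright and close together in the cultures. CANX (calnexin) was at 8.9 in the fibroblasts against 9.2 in both isolates, CALR (calreticulin) at 8.2, 8.2 and 8.6, and PDIA3, a disulfide isomerase, at 9.8, 9.7 and 9.9. ERAP1, which trims peptides in the endoplasmic reticulum, had the lowest difference of the list, at 5.6 in the fibroblasts against 3.4 and 4.5 in the isolates (difference -1.65 ± 0.77 SE, limma adjusted p = 0.392). TAPBPL, a relative of tapasin, was at 4.8, 4.1 and 4.8. The peptidase THOP1 had the highest difference, at 5.5 in the fibroblasts against 6.2 and 6.9 in the isolates. Limma called 0 of the 11 (1 higher with a robust prior), and 3 were higher and 0 lower at an unadjusted p under 0.05.

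Of 21 measured regulators of class I genes and parts of interferon signalling, 1 was over 3-fold lower in both isolates and 0 were over 3-fold higher. This was IRF9, the DNA-binding subunit of the complex that type I interferon activates, at 5.2 in the fibroblasts against 3.3 and 3.1 in the isolates (difference -2.0 ± 0.14 SE, limma adjusted p = 0.184). Its partner STAT2 was at 4.2 in the fibroblasts against 3.7 and 3.4 in the isolates. USP18, a brake on interferon receptors that interferon itself induces, was at 5.1, 3.6 and 4.0. The highest differences were those of NFYB, a subunit of the CCAAT-binding factor, at 5.1 and at 6.4 in both isolates, and of RFX5, which binds the X box of class I and class II promoters, at 3.2, 3.7 and 3.9. IRF9, STAT2, USP18 and RFX5 lay under the 90th percentile of other-organ genes on every array. The median of the list was -0.35, with 13 lower and 6 higher in both isolates by any amount. None of the 21 was called by limma (1 higher and 3 lower with a robust prior), and 3 were higher and 5 lower at an unadjusted p under 0.05. NLRC5 and IRF1, which act directly on class I promoters, had no probe set with a single symbol here.

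Interferon-induced genes other than the members stood lower as a list. Of 25 measured, 11 were over 3-fold lower in both isolates and 1 over 3-fold higher, beside 2.38% of all genes in each direction. The median difference was -1.35. Among the 11, IFI44, IFI44L, GBP5, UBA7 and XAF1 lay under the 90th percentile of other-organ genes on every array. None of the 25 was called by limma (4 lower with a robust prior), and 17 were lower and 1 higher at an unadjusted p under 0.05. IFI6 and IFI27 had the lowest differences of the list, at 10.5 and 10.0 in the fibroblasts and under 4.0 in both isolates. ISG15, a ubiquitin-like protein, was at 5.9 in the fibroblasts against 2.5 and 2.9 in the isolates, and MX1, an antiviral GTPase, at 6.2, 2.3 and 3.0. The gene over 3-fold higher was the chemokine CXCL10, at 4.4 in the fibroblasts against 7.4 and 7.6 in the isolates. By any amount 20 of the 25 were lower in both isolates and 3 higher in both, the others of these being IFI35 at 4.8, 4.9 and 5.5 and TRIM21 at 2.7, 3.0 and 3.1. The part of interferon signalling in the heavy chain values was not tested.

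Of 16 measured genes of class II presentation, 1 was over 3-fold lower in both isolates and 0 were over 3-fold higher, with a median difference of -0.33. The class II chains of this list lay under the 90th percentile of other-organ genes on every array. BOLA-DRA, the alpha chain of the main class II molecule, was at 2.5 in the fibroblasts against 3.0 and 3.9 in the isolates, and BOLA-DRB3, its partner, at 5.2, 4.9 and 5.2. The lysosomal enzymes LGMN, CTSB, CTSS and IFI30 of the list were at lower values in both isolates, and the lysosomal protease CTSL was at 4.5 in the fibroblasts against 4.6 and 4.8. LGMN (legumain) read 9.7 in the fibroblasts against 7.1 and 7.3 in the isolates (difference -2.50 ± 0.14 SE, limma adjusted p = 0.182). CTSS (cathepsin S) was at 4.6, 2.9 and 3.5. In limma 0 of the 16 were called, and 0 were higher and 3 lower at an unadjusted p under 0.05.

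BOLA-DQB1, a class II beta chain from a variable gene, was outside this list and was picked after its values were seen. Its probe set of highest mean, Bt.350.1.S1_s_at, was at 8.2 in the fibroblasts, 6.9 in isolate 1 and 2.8 in isolate 2. The isolates lay 4.1 apart as deposited, a gap of no certain size because isolate 2 was below the median of its array. This probe set and that of BOLA-N both read high in the fibroblasts, intermediate in isolate 1 and low in isolate 2. The other probe sets of BOLA-DQB1 did not repeat this. Bt.4594.1.S1_at was at 3.7 in the fibroblasts, 1.8 in isolate 1 and 4.5 in isolate 2, and Bt.7220.1.S1_at at 2.0, 3.9 and 1.4. Bt.350.1.S1_at at 0.9, 0.8 and 0.8 and Bt.350.1.S1_x_at at 1.9, 1.5 and 1.6 lay below the array median in every culture, with the isolates close together. Whether the cultures carried different alleles at these genes was not tested.

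Of 6 measured class I-like molecules, 0 were over 3-fold apart from the fibroblasts in both isolates, and the median difference was -0.35. FCGRT, which binds B2M to form the neonatal Fc receptor, was at 7.4 in the fibroblasts, 6.9 in isolate 1 and 7.5 in isolate 2. PROCR, the protein C receptor, was at 5.7, 4.8 and 5.4. MIC1, a ligand of natural killer cells, was at 2.1, 1.6 and 1.5. In limma 0 of the 6 were called, and 0 were higher and 1 lower at an unadjusted p under 0.05.

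**Figure D5:**
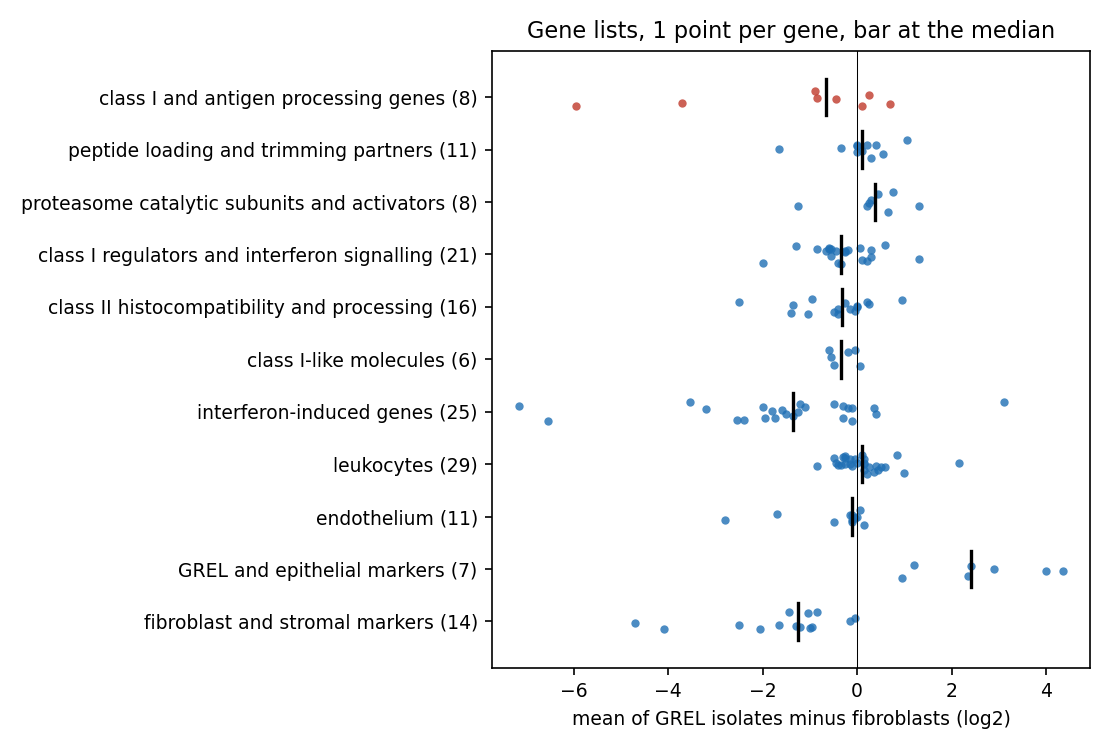
Mean log2 difference of the 2 GREL isolates from the fibroblasts, on the horizontal axis, with 1 point for each measured gene of the class I and antigen processing genes (red) and of the other lists (blue), the number of genes in brackets, and a bar at each median. The median is -0.65 for the class I and antigen processing genes, 0.38 for the proteasome list, -0.35 for the regulators and -1.35 for the interferon-induced genes. Points are spread vertically at random.

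Leukocytes and endothelium carry much class I, and their markers were read for this reason. Of 29 measured leukocyte markers none lay above the 90th percentile of other-organ genes on any array. Their median level was 1.7 in the fibroblasts, 1.7 in isolate 1 and 1.9 in isolate 2, and the summed linear signal was 101, 98.2 and 131. PTPRC, the common leukocyte antigen, was at 2.1, 2.0 and 1.9. None was over 3-fold lower in both isolates and 1 was over 3-fold higher. This was CORO1A, an actin-binding protein, at 1.3 in the fibroblasts, 2.9 in isolate 1 and 4.0 in isolate 2, the highest leukocyte value. Limma called 0 of the 29 and 0 of the 11 endothelial markers, with 0 higher and 2 lower of each at an unadjusted p under 0.05. Of 11 endothelial markers 2, ENG and EMCN, were over 3-fold lower in both isolates, at 5.6 and 4.7 in the fibroblasts and no higher than 3.1 in the isolates. The defining marker PECAM1 was at 1.8, 1.6 and 2.1, and CDH5 at 2.4, 2.2 and 2.4, below the array median in each culture. The summed linear signal of the list was 110 in the fibroblasts against 46.9 and 48.4 in the isolates, with ENG the brightest. In cultures read as a whole, fewer cells that express a gene and less RNA per cell cannot be told apart.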

How the data were processed

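The authors hybridized RNA of 3 cultures to Affymetrix GeneChip Bovine Genome Arrays and deposited log2 values made with RMA and quantile normalization (Partek, version 6.5 per the submitters' notes). The deposited log2 values are rounded to 0.1 and carry no detection calls. The table holds 24128 probe sets, from which 112 array controls were removed. Symbols came from GEO's older platform annotation: 13292 probe sets had 1 symbol, 86 several and 10638 none. The identifiers of BOLA and BOLA-N were not matched in the current gene table (assembly ARS-UCD2.0), those of the other 6 measured members were. No coordinates are given, since the array values name no genome build.

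For 1 value per gene, the probe set with the highest mean over the 3 arrays was used. Differences over 3-fold were counted where each isolate exceeded that fold. GREL cells were compared with fibroblasts by limma 3.58.1 (lmFit, eBayes) in R 4.3.3, with Benjamini-Hochberg adjustment over all probe sets. The fit had 1 residual degree of freedom and took the lone fibroblast array to be as variable as the isolates, so p-values measure the spread between 2 cultures. Tested on simulated data, the fit returned the differences put in but called none of them. The simulation used a set spread and changed a small share of probe sets, neither matched to these arrays. It therefore gives no rate of calls for these data. The 0 calls do not show that genes did not differ. Tables were made in Python 3.11.15 with pandas 2.3.3 and numpy 2.4.6. The members and the lists were chosen with earlier results of these data known. Named genes were all members, the proteasome pairs and the 5 genes nearest to BOLA-N. Some list genes over 3-fold in both isolates, not all, were named too, with some of the highest and lowest differences. A few more (such as STAT2, PSME1, CALR, BOLA-DRB3, CTSL, IFI35, FCGRT and PECAM1) were named for their role after their values were seen. The planned comparison of promoter motifs and protein sequences was not run here. Alternatives were an intensity trend, a robust prior, the methods' analysis of variance, a filter on dim probe sets, renewed quantile normalization, median centring, the mean over probe sets, other fold thresholds, a lower background level, leaving out either isolate and, added after seeing the data, raising values below the array median to it. The number of arrays limits the precision.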

Additional observations from a re-analysis of the deposited data

How the results depend on the processing

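BOLA and BOLA-N made up the 2 members over 3-fold lower in both isolates. The counts of 2 lower and 0 higher stayed the same under every alternative run for them (filter, both normalizations, mean over probe sets, 2-fold and 4-fold thresholds, either isolate left out). Several of these runs could not remove BOLA or BOLA-N. Each has 1 probe set, so a mean over probe sets changes nothing, and each passes the filter through the bright fibroblast array. A 2-fold threshold or leaving out an isolate only loosens the rule. All runs share the single fibroblast array, and the members were picked on this comparison. Of 40 recomputed differences of single members, 37 had the sign of the reported value. The exceptions were TAP1 without isolate 1 (-0.2) and TAP2 without isolate 1 or with renewed quantile normalization (0.0). Many of the 40 could not change sign, so this share says little. All members but B2M have 1 probe set, so a mean over probe sets left them as they were. Where both isolates lay on the same side of the fibroblasts, leaving out either keeps the sign. Members above the background level on every array numbered 1 at the 95th and 4 at the 90th percentile. With a robust prior limma called 571 probe sets higher and 618 lower in place of 0 and 0, among them 1 higher of the loading and trimming partners 1 higher and 3 lower of the regulators, 4 lower of the interferon-induced genes, 1 higher of the GREL and epithelial markers, 1 lower of the stromal markers and 1 lower of the genes of other organs. Over all probe sets 379 were over 3-fold higher and 419 over 3-fold lower in both isolates. These counts became 957 and 856 at 2-fold and 159 and 212 at 4-fold, and with 1 isolate left out they ranged from 486 to 740 and from 485 to 735, the upper values being those without isolate 1. The 5 pathway lists together had 0 genes over 3-fold higher and 2 lower, which became 2 and 7 at 2-fold, with 1 lower at 4-fold, and 2 to 4 lower with 1 isolate left out (4 without isolate 2). Of 160 other counts for single lists, 144 stayed within 1.5 times of the reported count. Many of these were 0 in both runs, so this share says little about lists with any genes over 3-fold. Among the counts that moved, interferon-induced genes over 3-fold lower went from 11 to 6 at 4-fold. Stromal markers lower went from 3 to 7 without isolate 1. No paired analysis was possible because the fibroblasts are 1 culture and share no more than 1 number with the isolates. Precision was limited by the single fibroblast array. TAP1, PSMB8, PSMB9 and the dim class I probe sets also lay under the 90th percentile of other-organ genes on every array.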
